A study of Homo sapiens with 2 samples.

Results

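The MYC, MAX and MXD network is a set of transcription factors that share a basic helix-loop-helix leucine zipper and bind DNA in pairs. Its 10 members here were taken by symbol from the deposited tables, out of 47265 named genes. They are MYC, MYCN and MYCL, which activate growth genes; MAX, the partner that the others share; MXD1, MXD3, MXD4 and MXI1, which take MAX away from MYC and repress; and the larger repressors MNT and MGA. MYC and MAX together bind the E-box, a short palindromic DNA motif, and the repressors bring corepressor complexes to the same motif. MYC is often raised in advanced prostate cancer, and its gene is a well-known target of compounds that block BET bromodomain proteins.

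The cells were C4-2B, a bone-metastatic, androgen-independent line of castration-resistant prostate cancer derived from LNCaP. They received either DMSO as vehicle or 2.5 µM MA4-022-1, which the labels call an inhibitor of both BET proteins and kinases. The length of exposure is not stated in the labels. Each group held 1 library of total RNA depleted of ribosomal RNA, so the differences rest on a single pair of libraries, without replicates and without p-values. Levels are RPKM, the reads of a gene scaled by its length and by the library's reads, which can be compared between genes. Each difference is the log2 of (RPKM + 1) with MA4-022-1 divided by the same with vehicle, and folds are on that scale. Expressed genes are those that reached 1 RPKM in the vehicle or the treated library. In bulk RNA, fewer cells of a type and less RNA per cell cannot be told apart.

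From the steps between low values, 27137232 reads lay behind the vehicle RPKM and 19907701 behind those with MA4-022-1, so the treated values are the less precise. The 95% intervals below cover counting error only. All 12 rows of the luminal prostate markers stood at 34.8 RPKM or more in the vehicle library and at 31.7 or more with MA4-022-1. Of 8 basal and neuroendocrine, 8 bone stroma and 6 blood markers, the highest value in either library was 5.03 RPKM, that of COL1A1, which stood at 1.19 RPKM in the vehicle library. The bone stroma markers summed to 4.04 against 5.88 RPKM and the blood markers to 0.470 against 1.52. The basal and neuroendocrine markers summed to 3.46 against 6.05 RPKM. Their part in the results was not tested.

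MYC was the only one of the 9 expressed members beyond 2-fold, and it was lower with MA4-022-1. The other 8 stayed inside that limit in both directions. Of all 15450 expressed genes, 9.57% were beyond 2-fold on the lower side and 7.73% on the higher side, so 1 of 9 is near the background. With a pseudocount of 0.1 these shares were 13.3% and 12.7%, with one of 5 they were 4.28% and 2.86%, and MYC stayed the 1 member beyond 2-fold. For the 10408 protein-coding genes among them, with the pseudocount of 1, they were 9.44% and 4.12%. Of the genes beyond 2-fold, 44.7% were higher on the deposited scale, 57.2% with the housekeeping genes set to 0 and 35.6% with equal sums. The median log2 ratio was -0.03 over the expressed members and -0.02 over all expressed genes.

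MYC had 78.5 RPKM with vehicle and 33.7 RPKM with MA4-022-1 (hg19 chromosome 8, 128747680 to 128753674). Its log2 ratio was -1.20, with a counting interval from -1.31 to -1.08, or 2.29-fold lower. Of all expressed genes, 6.34% had a ratio as low or lower. Its level exceeded that of 86.5% of the expressed protein-coding genes in the vehicle library and of 72.8% with MA4-022-1. MYC thus went from the second highest level in the network to the fourth.

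MYCL, the MYC relative first found in lung cancer, was matched through its older symbol MYCL1. It had 3.64 RPKM with vehicle and 2.86 RPKM with MA4-022-1 (chromosome 1, 40361098 to 40367928). The log2 ratio was -0.26 with an interval from -0.55 to 0.03, so the difference was not beyond counting error. MYCN, the form amplified in neuroblastoma and linked to neuroendocrine prostate cancer, was listed at 0 in both libraries (chromosome 2, 16060521 to 16087129). On its transcript 3 reads would be worth 0.0568 and 0.0774 RPKM, although a listed 0 can also be a failed estimate. MYCNOS, on the opposite strand of the same locus, was at 0.0994 and 0.0903 RPKM. Over the MYC family, MYCL made up 4.43% of the summed level in the vehicle library and 7.83% with MA4-022-1.

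MAX, the common partner, had the highest level of the network in both libraries. It had 116.6 RPKM with vehicle and 79.5 RPKM with MA4-022-1, a log2 ratio of -0.55 with an interval from -0.66 to -0.43. That is 1.46-fold lower and within the 2-fold threshold, and 22.1% of expressed genes had a ratio as low or lower. The deposited locus runs from 65377602 to 65569413 on chromosome 14 and also holds rows of other genes. Of these, the joined row of CHURC1 and FNTB went from 210 to 269 RPKM and RAB15, a small GTPase, from 4.45 to 4.07 RPKM.

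**Figure D1:**
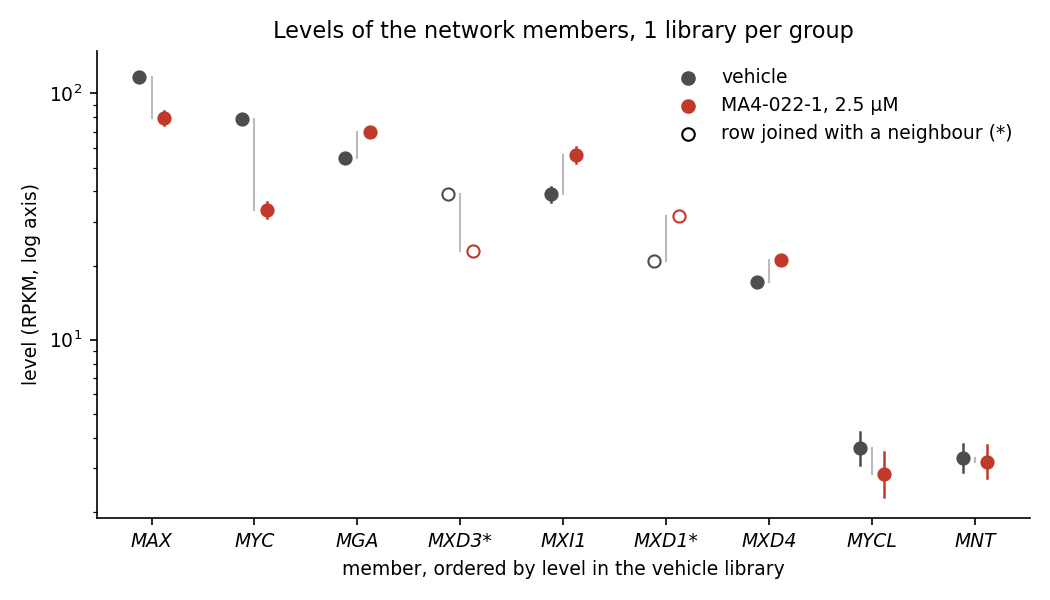
Level in RPKM (log axis) of the 9 expressed members in the vehicle library (grey) and the MA4-022-1 library (red), with 95% counting intervals; open points are rows joined with a neighbouring gene. MYC goes from 78.5 to 33.7 RPKM, below MGA at 70.0 and MXI1 at 56.3 RPKM, while MYCL and MNT stay under 4 RPKM.

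Among the repressors, 4 of 6 had a higher value with MA4-022-1 and all 6 lay within 2-fold. Of all 15450 expressed genes, 7552 lay above 0 and 12776 within 2-fold. The median log2 ratio of the 6 repressors was 0.32, and their ratios ran from -0.75 to 0.59. MXI1, also called MXD2, had 39.0 RPKM with vehicle and 56.3 RPKM with MA4-022-1 (chromosome 10, 111967363 to 112047123). Its log2 ratio was 0.52, with an interval from 0.38 to 0.67, and 21.6% of expressed genes had a ratio as high or higher. MXD4 stood at 17.1 against 21.1 RPKM, a log2 ratio of 0.29 from 0.19 to 0.38 (chromosome 4, 2249159 to 2264021). Both differences are beyond counting error but small against the spread of all expressed genes, whose 10th to 90th percentiles ran from -0.97 to 0.88.

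MXD1 and MXD3 have no row of their own. MXD1, which rises as many cell types differentiate, shares its row with SNRNP27, a protein of the spliceosome, and that row had 20.8 RPKM with vehicle and 31.8 RPKM with MA4-022-1. The log2 ratio of 0.59 was the highest among the members. MXD3, which unlike its relatives is made in dividing cells, shares its row with RAB24, a small GTPase, and that row stood at 39.0 against 22.9 RPKM, a log2 ratio of -0.75. The contribution of each gene to a joined row cannot be told apart, and no counting interval is given for them. PRELID1, in the same deposited locus as MXD3 (chromosome 5, 176728199 to 176739758), had a log2 ratio of -0.77 at 245 against 143 RPKM.

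MGA, a very large protein with both a T-box and a helix-loop-helix domain, had the third highest level of the network in the vehicle library and the second highest with MA4-022-1. It stood at 54.7 and 70.0 RPKM, a log2 ratio of 0.35 with an interval from 0.29 to 0.41 (chromosome 15, 41913422 to 42062791). MNT, the most broadly expressed antagonist of MYC in mammals, was the lowest of the repressors at 3.30 RPKM in the vehicle library and 3.20 RPKM with MA4-022-1 (chromosome 17, 2287354 to 2304412). Its log2 ratio of -0.03 had an interval from -0.26 to 0.19, and it turned to 0.0845 when the median of the housekeeping genes was set to 0. The levels of MNT and MYCL were within each other's counting intervals in both libraries.

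**Figure D2:**
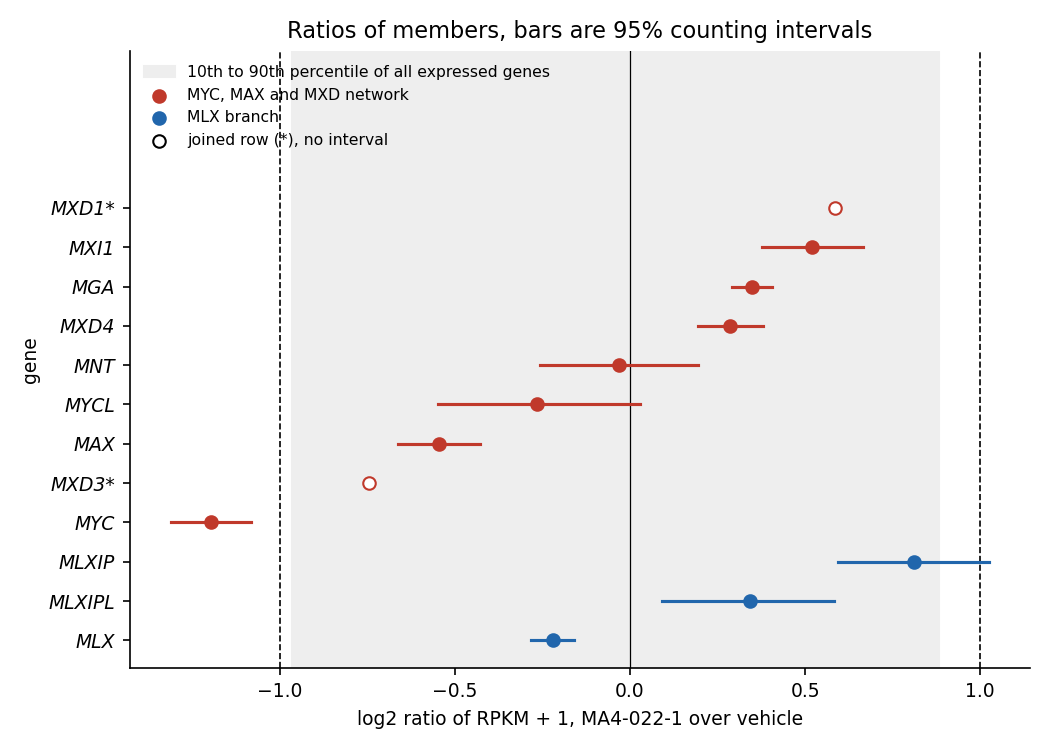
Log2 ratio of RPKM + 1, MA4-022-1 over vehicle, for the expressed members (red) and the MLX branch (blue), with 95% counting intervals; dashed lines mark 2-fold and the grey band spans the 10th to 90th percentile of 15450 expressed genes. MYC at -1.20 lies past the lower 2-fold line, and MXI1, MGA and MXD4 lie above 0 with intervals that do not reach it.

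The RefSeq promoter table (GRCh38.p14) held 9 of the 10 members, all but MYC. Their 250 bases before each start were searched for CACGTG, the E-box, which reads the same on both strands. It stood in the windows of MXD4 and MNT and in none of the other members' windows searched. Of all 35116 windows of that length in the table, 6.34% held it. Counted by gene, 7.73% of 27305 genes held it, and 11.6% of 8694 expressed protein-coding genes. The 2 windows are shown because they carry the network's own binding motif in genes of the network. The E-box is in capitals, and its first base lies 238 bases before the start in MXD4 (chr4:2262110-2262359, minus strand) and 193 bases before it in MNT (chr17:2401061-2401310, minus strand).
MXD4: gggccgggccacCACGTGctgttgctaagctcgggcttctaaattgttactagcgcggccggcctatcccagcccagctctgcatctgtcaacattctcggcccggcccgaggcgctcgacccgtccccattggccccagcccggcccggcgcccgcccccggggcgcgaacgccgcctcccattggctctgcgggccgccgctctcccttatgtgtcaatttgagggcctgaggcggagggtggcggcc
MNT: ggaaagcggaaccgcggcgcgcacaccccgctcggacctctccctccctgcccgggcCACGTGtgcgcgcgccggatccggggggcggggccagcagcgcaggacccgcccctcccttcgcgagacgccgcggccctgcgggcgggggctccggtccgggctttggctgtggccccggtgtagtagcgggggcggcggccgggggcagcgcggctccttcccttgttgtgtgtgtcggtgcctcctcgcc
A match is a description of these letters and no measurement of binding. MXD4 had a log2 ratio of 0.29 and MNT one of -0.03. The variant CACGCG, searched on both strands, stood in 1 window of MGA among the members and in 9.72% of all windows.

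Set against each other, the level of MYC was 0.451 of the summed level of the 6 repressors in the vehicle library and 0.164 with MA4-022-1. The log2 change of this quotient, taken without a pseudocount, was -1.46. It was -1.62 without the joined rows of MXD1 and MXD3, at 0.688 against 0.224. The summed repressors stood at 174 against 205 RPKM. MYC had 2.01 times the level of MXI1 and 1.43 times that of MGA in the vehicle library, and 0.599 and 0.481 times with MA4-022-1, so that the order of both pairs turned. The counting intervals of the levels in these pairs did not overlap in either library. MYC made up 30.6% of the summed partners of MAX in the vehicle library and 13.9% with MA4-022-1. MAX itself stood at 0.455 and 0.329 of that sum, and at 1.49 and 2.36 times the level of MYC. Without the joined rows the MYC share was 40.0% and 18.0%, and MAX stood at 0.594 and 0.425 of the sum. These are RNA levels, and protein amounts were not measured.

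**Figure D3:**
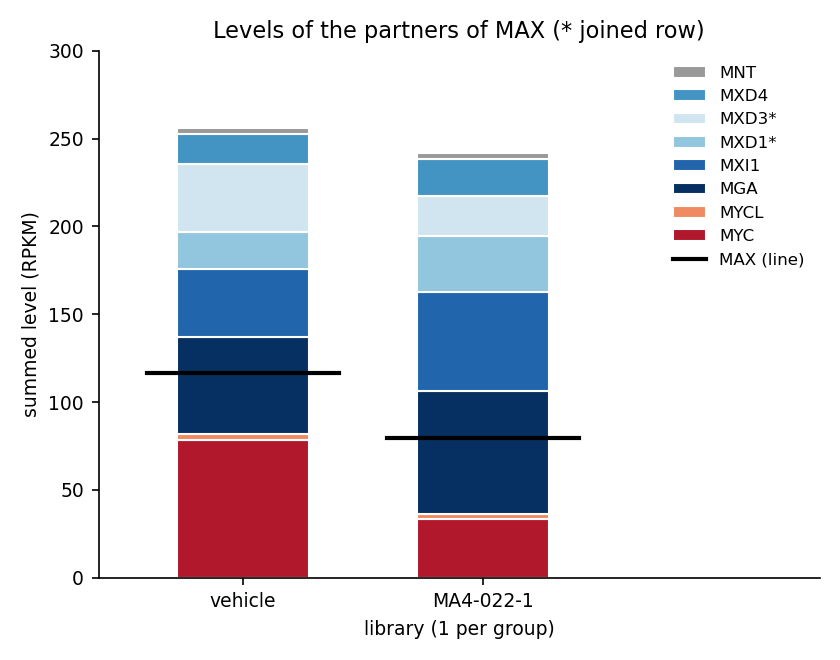
Summed RPKM of the expressed partners of MAX in each library, stacked by gene, with activators in red shades and repressors in blue shades and grey; the black line is the level of MAX. MYC takes 30.6% of the vehicle bar and 13.9% of the MA4-022-1 bar. The bars hold the whole joined rows of MXD1 and MXD3, and without them the MYC shares are 40.0% and 18.0%.

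MLX and its partners form a parallel branch that binds related motifs and responds to glucose, and MLX can also pair with MXD1, MXD4 and MNT. MLX had 91.3 RPKM with vehicle and 78.2 RPKM with MA4-022-1, a log2 ratio of -0.22 with an interval from -0.28 to -0.16. MLXIP, or MondoA, stood at 6.17 against 11.6 RPKM, a log2 ratio of 0.81 from 0.59 to 1.02. MLXIPL, or ChREBP, the form known from liver, stood at 0.838 against 1.33 RPKM. None of the 3 was beyond 2-fold, like 12776 of all 15450 expressed genes. Of 7 listed targets of this branch 5 were expressed, and their median log2 ratio was 0.07. HBP1 stood at 49.9 against 52.6 RPKM, G6PC3 at 31.8 against 36.2 and BHLHE40 at 9.81 against 7.13. The MLX window held 1 E-box, which starts 50 bases before the start of the gene (chr17:42566850-42567099, plus strand), and it is shown for comparison with those above.
MLX: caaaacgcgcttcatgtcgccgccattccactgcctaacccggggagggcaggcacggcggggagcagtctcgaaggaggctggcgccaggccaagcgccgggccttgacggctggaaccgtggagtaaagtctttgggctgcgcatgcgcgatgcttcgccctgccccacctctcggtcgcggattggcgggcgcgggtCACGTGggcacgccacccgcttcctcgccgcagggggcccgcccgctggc

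The complexes that the repressors recruit were mostly within 2-fold, as were 12776 of all 15450 expressed genes. The SIN3 corepressor, which carries histone deacetylases to MXD proteins and MNT, had a median log2 ratio of 0.06 over 17 expressed members. The 1 gene beyond 2-fold was lower, or 5.88% of the list beside 9.57% over all expressed genes. It was FAM60A, now SINHCAF, a subunit of that complex, at 98.4 against 35.0 RPKM. The histone deacetylase HDAC2 stood at 109 against 69.0 RPKM, and the histone chaperones RBBP4 and RBBP7 at 154 against 98.2 and 272 against 186 RPKM. The Polycomb complex PRC1.6, in which MGA and MAX sit, had a median of -0.49 over 13 members, all within 2-fold. Of these members 9 lay below 0, as did 7898 of all 15450 expressed genes. TFDP2 and TFDP1, dimer partners of E2F factors, stood at 99.4 against 53.1 and 83.4 against 51.7 RPKM. RING1, a ubiquitin ligase of the complex, went the other way at 15.5 against 26.5 RPKM, and WDR5 stood at 12.5 against 6.65.

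Chromatin cofactors of MYC had a median of -0.01 over 18 expressed members, none beyond 2-fold. Over all expressed genes, 9.57% were that much lower and 7.73% that much higher. The ATPase RUVBL1 and its partner ACTL6A stood at 151 against 91.1 and 411 against 236 RPKM. The large scaffold TRRAP had a higher value, at 6.50 against 11.5 RPKM. KAT2A, the acetyltransferase GCN5, picked with its values known, was listed at 0 in both libraries.

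Genes that control the life of the MYC protein had a median of -0.30 over 23 expressed members. Beyond 2-fold were 4 of them, all with the lower value under MA4-022-1, which is 17.4% of the list beside 9.57% over all expressed genes. KIAA1524, now CIP2A, which keeps the phosphatase PP2A from MYC, stood at 9.57 against 2.15 RPKM, a log2 ratio of -1.75. AURKA, a mitotic kinase that also shields MYC proteins from degradation, stood at 23.6 against 6.61 RPKM, a log2 ratio of -1.69. SET, an inhibitor of PP2A, was at 352 against 135 RPKM, a log2 ratio of -1.37, and USP37, a deubiquitinase, at 33.2 against 12.8 RPKM, a log2 ratio of -1.31. AURKA is also a cell cycle gene. Over the 23 expressed members of the list, 14 lay below 0 and 9 above 0, beside 7898 and 7552 of all 15450 expressed genes. Picked with their values known, USP36 stood at 16.2 against 20.5 RPKM and SKP2 at 12.1 against 6.75 RPKM. The ligase subunit FBXW7 and the kinase GSK3B, which mark MYC for degradation, were picked with their values known and stood at 5.97 against 6.48 and 104 against 111 RPKM.

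Factors that act on MYC RNA or its gene had a median of -0.42 over 11 expressed members, with 2 at least 2-fold lower, or 18.2% beside 9.57% over all expressed genes. IGF2BP3, of the family of proteins that protect MYC RNA, stood at 10.3 against 2.78 RPKM, and the RNA-binding protein ELAVL1 at 46.5 against 22.2 RPKM. HNRNPK and CNBP, which bind a control element upstream of the gene, stood at 785 against 424 and 386 against 211 RPKM. Beside MYC on its chromosome, the noncoding gene PCAT1 stood at 5.25 against 1.18 RPKM. PVT1, picked with its values known, had its value in a row joined with MIR1204, at 95.1 against 65.5 RPKM, a log2 ratio of -0.53 and within 2-fold.

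Target genes of MYC were mostly lower. Of 53 expressed genes of a growth and nucleolar list, 15 were beyond 2-fold on the lower side and none on the higher side, and 48 lay below 0. The median log2 ratio was -0.69. The 15 genes are 28.3% of the list, beside 9.57% of all expressed genes. Below 0 lay 7898 of all 15450 expressed genes. The list was written with earlier results of these data known, as were the lists above and below, so these shares describe the lists and do not test them. The largest difference in the list was that of MCM5, a subunit of the replicative helicase, at 32.9 against 3.21 RPKM. UNG, a DNA glycosylase, followed at 24.3 against 2.87 RPKM, and MCM4, of the same helicase, at 201 against 44.4 RPKM. NOP16 works in the nucleolus, where ribosomes are assembled, and had 96.6 against 26.5 RPKM. WDR74, picked with its values known, was listed at 67754 against 92165 RPKM, the highest ratio of the list. That level is far above NPM1, picked likewise, at 7193 against 5064 RPKM. Whether the WDR74 value comes from its own messenger RNA was not tested. Without the replication and mitosis genes MCM4, MCM5, PLK1, PLK4 and UNG, the median was -0.68.

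In a list of further textbook targets, many of them metabolic, 10 of 25 expressed members lay beyond 2-fold, all of them lower, and the median was -0.96. Over all expressed genes 9.57% were that much lower. E2F1, which drives entry into S phase, and TYMS, of thymidylate synthesis, stood at 11.5 against 1.31 and 90.2 against 16.4 RPKM. CDC25A, a cell cycle phosphatase, stood at 8.93 against 0.936 RPKM and PAICS, of purine synthesis, at 104 against 28.2 RPKM. The gene of ornithine decarboxylase, ODC1, and the amino acid transporters SLC7A5 and SLC1A5, were picked with their values known and stood at 474 against 238, 4.80 against 1.78 and 29.8 against 10.7 RPKM. LDHA, of lactate production and picked likewise, stood at 1028 against 1294 RPKM. MCM4, MCM5, E2F1, TYMS and CDC25A also serve DNA replication and the cell cycle.

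Genes that MYC is known to repress were not higher as a group. Of 19 expressed, 6 lay beyond 2-fold on the lower side and 1 on the higher side, with a median of -0.19. The shares over all expressed genes were 9.57% and 7.73%. THBS1, an inhibitor of vessel growth, stood at 54.5 against 12.4 RPKM, and GADD45A, a stress gene, at 17.4 against 5.75 RPKM. BTG2 and CDKN2C, which restrain proliferation, stood at 6.16 against 2.22 and 14.6 against 6.03 RPKM. The gene beyond 2-fold in the other direction was CDKN2B, an inhibitor of CDK4 and CDK6, at 0.721 against 2.96 RPKM. CDKN1A, which encodes p21, stood at 52.7 against 27.1 RPKM. Abundant members with higher values were FTH1, which stores iron, at 708 against 1416 RPKM, NDRG1 at 183 against 276 and CLU, a secreted chaperone, at 74.1 against 119, all within 2-fold. These 5 genes were picked with their values known.

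**Figure D4:**
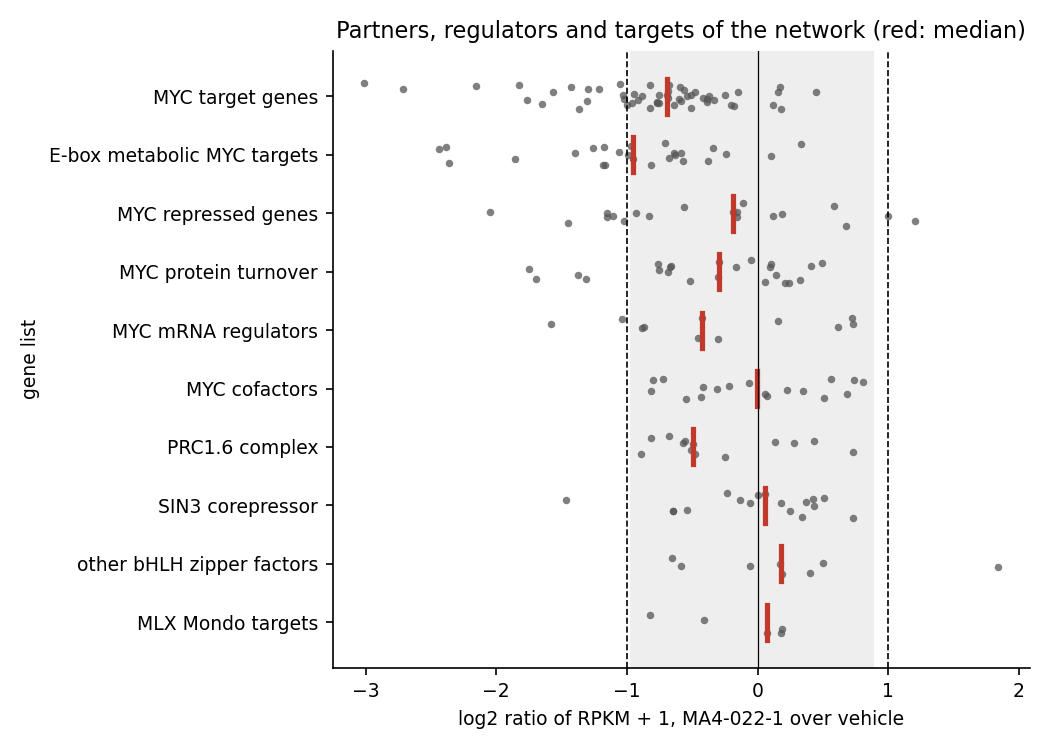
Log2 ratio of RPKM + 1, MA4-022-1 over vehicle, of each expressed gene with a row of its own in 10 lists around the network; red bars are medians, dashed lines mark 2-fold and the grey band is the 10th to 90th percentile of all expressed genes. The 2 target lists have medians of -0.69 and -0.96, and the lists of cofactors and of the SIN3 corepressor have medians near 0.

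The genes whose levels over the 2 libraries were nearest to those of MYC, by distance on log2 of RPKM + 1, were BAG1, a cochaperone, MTA2, a subunit of a remodelling and deacetylase complex, and RDBP, now NELFE, a subunit of the factor that pauses RNA polymerase II. They stood at 77.8 against 33.8, 77.1 against 33.6 and 77.5 against 34.7 RPKM, at distances of 0.0131, 0.0258 and 0.0465. With 2 libraries, such nearness is a single level and a single ratio.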

How the data were processed

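RNA of 1 library per group was measured as single 50 bp reads from ScriptSeq libraries, per the labels' protocols. Per the submitters' processing notes, TopHat2 2.0.13, Cufflinks 2.2.1 and hg19 were used. Which annotation was used is not stated there. Per the file headers, the authors deposited RPKM for each gene beside its symbol and locus. These are normalised values, so no count test was run, and 1 library per group allows no test between groups. Each table held 62271 rows, of which 2751 without a symbol, holding 29.6% and 23.3% of the summed RPKM, and those of short RNAs were left out. Rows of 1 symbol were summed, and joined rows kept their joint name. A joined row stands for MXD1 and for MXD3, and other lists leave joined members out.

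Totals were fitted on single-row processed pseudogenes of 600 to 6000 nt. With vehicle, 98.4% of 185 low values lay within 1% of a whole read, and with MA4-022-1, 98.6% of 142, with transcripts shortened by 201 nt. Intervals are exact Clopper-Pearson intervals of the split of estimated reads, and exact Poisson intervals for single levels. They assume the median length of the protein-coding transcripts in GENCODE release 29, used for lengths alone, and PCR duplicates are not in them. The fits and 2-fold calls were tested on simulated data.

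Named were all members, the MLX branch, up to 4 genes per list with the largest ratios at 5 RPKM or more, and the 3 nearest to MYC. Some rows that share a member's locus were named beside it and others were not. Other genes outside this rule are marked in the text as picked. Members and lists were chosen with earlier results of these data known. Python 3.11.15, numpy 2.4.6, pandas 2.3.3, scipy 1.17.1 and matplotlib 3.10.9 were used. The alternatives changed the pseudocount, the filter, the scaling, the threshold or the treatment of rows.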

Additional observations from a re-analysis of the deposited data

How the results depend on the processing

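MYC was the 1 member at least 2-fold lower and none was at least 2-fold higher under 9 of the 10 alternatives tried for each count. At 1.5-fold, 2 were lower and 1 was higher, since the joined rows of MXD3 and MXD1 entered, the latter at 1.502-fold. The share of all expressed genes beyond 1.5-fold was not computed, so these counts have no background beside them. The log2 ratio of MYC was -1.08 with the housekeeping median set to 0 and -1.32 with equal sums over the genes kept, which moved the median of all expressed genes to 0.10 and -0.13. The first scaling also turned the log2 ratio of MNT to 0.0845, the 1 member whose sign changed. Leaving out the joined rows moved the log2 change of MYC over the summed repressors to -1.62. The median of the MYC target genes stayed below 0 under its 11 alternatives. It was -0.76 and -0.61 with pseudocounts of 0.1 and 5, -0.75 with a filter of 5 RPKM, -0.58 with the housekeeping median, -0.67 with the median of expressed genes and -0.82 with equal sums. In 2 alternatives chosen after seeing the data, it was -0.68 without the 5 replication and mitosis genes and -0.72 without members whose locus also lists a short RNA. WDR74 stayed in the latter, because no short RNA row shares its deposited locus. The cause of these shifts was not tested beyond what each alternative changes. No paired analysis was possible because each group held 1 library. The 2-fold counts of the other lists were not computed under the alternatives. Some of their genes lie near the limit, such as ELAVL1 at 2.05-fold lower and ODC1 at 1.99-fold lower.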

Other observations

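The E-box was also counted in the promoters of the target lists, as a description. Of 43 expressed MYC target genes with a promoter in the table, 14, or 32.6%, held CACGTG in the 250 bases before a start. Among 8694 expressed protein-coding genes with a promoter there, 11.6% did. The lists were written as targets of MYC, so this share is no independent evidence. The 14 genes had a median log2 ratio of -0.76 and the 29 without the motif one of -0.59, and 4 and 7 of them were at least 2-fold lower. Over the expressed protein-coding genes, 8.70% with the motif and 9.16% without it were that much lower. Of these genes, CDK4 and UTP20 were picked with their values known. CDK4, with 3 matches, stood at 216 against 87.1 RPKM, and UTP20, with 1 match, at 6.18 against 5.48 RPKM. In the list of further targets, 8 of 22 with a promoter held the motif, with medians of -0.82 with it and -0.89 without it. Over the expressed protein-coding genes, the medians were -0.10 and -0.09. A high share was not particular to the target lists. Of the genes that MYC is known to repress, 5 of 14 with a promoter, or 35.7%, held the motif. Among the targets of the MLX branch it was 3 of 4, in the PRC1.6 list 3 of 13 and in the SIN3 list 1 of 16.

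Other factors with the same kind of zipper had a median log2 ratio of 0.18 over 8 expressed genes. Beyond 2-fold was 1 of them, on the higher side, beside 7.73% of all expressed genes. That gene was SREBF1, the regulator of lipid synthesis, at 198 against 711 RPKM. Its relative SREBF2 stood at 33.4 against 47.7 RPKM, while TFAP4, itself a target of MYC, stood at 12.3 against 7.83 and TFE3, of the lysosome programme, at 4.96 against 6.88 RPKM.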
